A study of Mus musculus with 9 samples.

Results

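The xenobiotic and lipid-sensing receptors were followed as 10 genes in livers of mice given acetaminophen. They are Nr1i2 (PXR), Nr1i3 (CAR), Ahr (AhR), Arnt, Ppara (PPAR alpha), Nr1h4 (FXR), Nr1h3 (LXR alpha), Nr1h2 (LXR beta), Rxra (RXR alpha) and Nr3c1, the glucocorticoid receptor (GR). They were picked by gene symbol and known function, with earlier results of these data known, though no measured value is part of the rule. They are 10 of 28956 genes in the count table and of 17582 that passed the filter on low counts, which all 10 did. Of the 10, 8 are nuclear receptors. Ahr and Arnt belong to another family, the bHLH-PAS factors, and are grouped with them because the pair responds to foreign compounds too.

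Poly(A) RNA was sequenced in 9 libraries, 3 in each of 3 groups. All mice were of strain C57BL6J, were 8 weeks old and received 300 mg/kg APAP (acetaminophen) into the peritoneum. The APAP group received nothing further that the labels state, whereas each mouse of the APAP_MSC and APAP_HDF groups received 500000 MSC or HDF cells into a vein 90 min later. The series title gives 24 h. MSC usually abbreviates mesenchymal stromal cells and HDF human dermal fibroblasts, though the labels spell out neither. No untreated liver was among the groups, so each value describes injured liver with or without injected cells. The labels call the material hepatocytes, but the protocol describes a piece of whole liver, and markers of several other liver cells were detected. They do not say that the 3 libraries of a group came from separate animals, so p-values measure only the spread between these samples, which may be technical. The column headers give the group alone, and libraries are numbered here in column order.

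These receptors are transcription factors switched by small molecules. PXR and CAR respond to drugs and bile acids and act on genes of drug oxidation, conjugation and export. PPAR alpha responds to fatty acids, FXR to bile acids and the LXRs to oxysterols, and each binds DNA as a heterodimer with an RXR. AhR leaves a cytoplasmic chaperone complex on binding a ligand and pairs with ARNT, while GR responds to glucocorticoids and binds without RXR. Their activity depends on ligand, partners and location in the cell, so the transcript level is only one of the things that set it.

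Each library held 53267231 to 63175573 counts, so that the receptors were measured on 886 to 28805 counts per library and a count of 0 would allow up to 0.0566 CPM. Levels are in CPM, a gene's counts as a share of its library total, put on one common scale, with the totals adjusted by TMM, a method that assumes most genes do not differ. Of the hepatocyte marker list, 7 of 8 symbols were in the table. Their summed level was 84190 to 112900 CPM in APAP, 91900 to 100800 CPM in APAP_MSC and 84690 to 111000 CPM in APAP_HDF, with 0 of 7 called in APAP_MSC against APAP. By edgeR 3 of the 7 had an unadjusted p under 0.05 there, beside 22.6% of all genes. Asgr1 (log2 fold change 0.62) and Ttr (0.58) were higher and Apob (-0.55) was lower. In that comparison 4 of 9 monocyte and macrophage markers, 3 of 5 tested neutrophil markers, 3 of 8 sinusoidal endothelium markers and 2 of 8 hepatic stellate cell markers (Dcn and Ecm1) fell, beside 3.51% of all genes, and 1 of 3 erythroid markers (Alas2) rose, beside 2.68%. There 0 of 6 Kupffer cell, 0 of 5 cholangiocyte, 0 of 3 tested T and NK cell and 0 of 3 tested B cell markers were called. The macrophage list summed to 128 to 184 CPM in APAP, 62.2 to 86.5 CPM in APAP_MSC and 96.7 to 130.1 CPM in APAP_HDF. The endothelial list summed to 198 to 291, 144 to 165 and 193 to 259 CPM in the same order, and the stellate list to 343 to 410, 272 to 305 and 225 to 318 CPM. The neutrophil list summed to 9.20 to 12.1, 2.73 to 4.21 and 2.97 to 10.6 CPM, with Ly6g, Cxcr2, Retnlg and Ngp at 0 in at least 1 library. The part of these cell markers in the receptor values was not tested, and fewer cells of a type cannot be told apart from less RNA per cell in whole tissue.

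None of the 10 receptor genes passed the test for a difference between groups. A gene was called when its Benjamini-Hochberg adjusted p over all 17582 tested genes was under 0.05 in edgeR's quasi-likelihood test, fitted to all 9 libraries. In APAP_MSC against APAP, 0 of 10 receptors were called where 6.19% of all genes were, and 0 had an unadjusted p under 0.05, beside 22.6% of all genes. For APAP_HDF against APAP, 0 of 10 were called where 0% of all genes were, and 1 (Ahr) had an unadjusted p under 0.05, beside 8.29% of all genes. Between APAP_MSC and APAP_HDF, 0 of 10 were called where 8.79% of all genes were, and 2 (Ahr and Nr1i2) had an unadjusted p under 0.05, beside 25.5% of all genes. A joint test of all 3 groups called 0 of 10 against 6.79% of all genes, with 1 (Ahr) under 0.05 unadjusted, beside 24.4%. DESeq2 and limma-voom also called 0 of 10 in each of the 4 tests. The comparisons of APAP_MSC and of APAP_HDF with APAP share the APAP libraries, so their values are not independent of each other.

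The size of the receptors' estimates and their precision are given beside those of all genes. Their median absolute log2 fold change was 0.10 in APAP_MSC against APAP, 0.035 in APAP_HDF against APAP and 0.14 in APAP_MSC against APAP_HDF, and the same median over all tested genes was 0.23, 0.17 and 0.26. Their signed medians were 0.06, 0.002 and 0.06, beside -0.01, -0.004 and -0.02 over all genes. The 95% interval of the difference lay within log2 1 on either side of 0, a 2-fold difference, for 10, 9 and 10 of the 10 receptors in the same order. It lay within log2 0.5 for 6, 6 and 5 of them. Differences inside a receptor's interval are those that the values of 3 libraries a group do not exclude. The plot of log2 fold changes with their intervals shows that Nr1i3 had the widest intervals and that Nr1h3 and Nr3c1 had the narrowest.

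**Figure D1:**
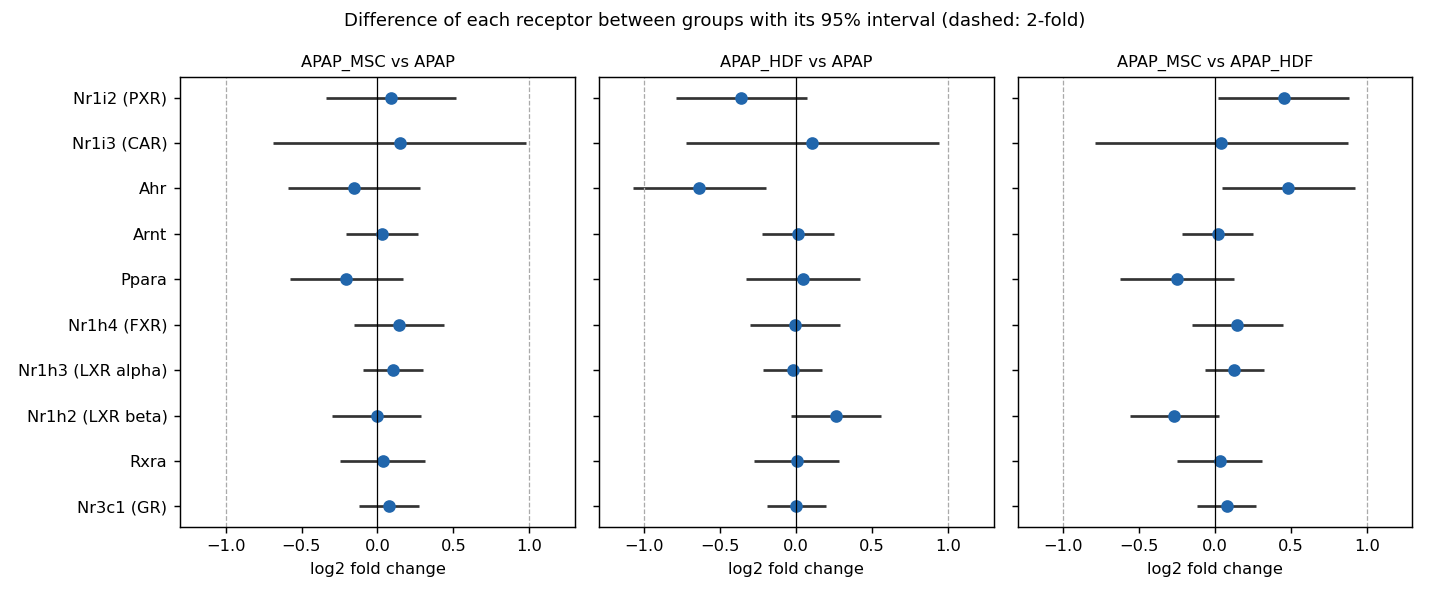
Log2 fold change of each receptor gene (points) with its 95% interval from edgeR's quasi-likelihood fit (lines) in the 3 comparisons of groups, with 3 libraries in each group. Dashed lines mark a 2-fold difference, which only the interval of Ahr in APAP_HDF against APAP crosses, reaching -1.08.

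Among all genes, 1088 were called in APAP_MSC against APAP, 471 of them higher (43.3%, or 28.7% with libraries scaled by total counts alone). Between APAP_MSC and APAP_HDF, 1545 were called, 841 of them higher (54.4%, or 32.9% with total counts alone). Total counts moved the median log2 fold change of all genes to -0.12 and -0.14, so that receptors with estimates near 0 are read relative to that shift. For APAP_HDF against APAP, edgeR called 0 genes, DESeq2 called 83 and limma-voom called 0, and 1458 had an unadjusted p under 0.05 in edgeR. Without APAP_MSC library 2, the call counts were 87 in APAP_MSC against APAP and 324 in APAP_MSC against APAP_HDF. Against APAP, leaving out APAP library 1 or 2 gave 426 or 603 calls, leaving out APAP_MSC library 1 or 3 gave 224 or 371, and leaving out APAP_HDF library 1 gave 1676. Against APAP_HDF, leaving out APAP_MSC library 1 or 3 gave 601 or 1020 calls, and leaving out APAP_HDF library 1 or 2 gave 950 or 906. Between APAP_HDF and APAP, 31 were called without APAP library 3 and 1 without APAP_HDF library 1.

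Nr1i2 encodes PXR, which binds a wide range of drugs and steroids. Its level was 63.1, 73.8 and 47.8 CPM in the APAP libraries, 53.5, 76.2 and 66.9 CPM in the APAP_MSC libraries and 37.8, 47.9 and 57.8 CPM in the APAP_HDF libraries. The groups overlapped, although the APAP_HDF mean of 47.9 ± 10 CPM (SD, n = 3) lay below those of APAP (61.6 ± 13.1 CPM) and APAP_MSC (65.5 ± 11.4 CPM). The log2 fold change was 0.09 ± 0.19 (SE) in APAP_MSC against APAP, -0.36 ± 0.20 in APAP_HDF against APAP and 0.45 ± 0.20 in APAP_MSC against APAP_HDF. The last had an interval of 0.022 to 0.89 and an edgeR adjusted p of 0.175, short of the threshold.

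Nr1i3 encodes CAR, which is kept in the cytoplasm until an activator releases it. Its level was 24.1, 32.0 and 30.6 CPM in APAP, 23.4, 36.8 and 35.8 CPM in APAP_MSC and 13.9, 36.9 and 42.5 CPM in APAP_HDF. The APAP_HDF group held both the lowest and the highest of the 9 values, a 3.05-fold range within 1 group. The SD of Nr1i3 within groups (0.56 on the log2 scale) lay at the 98.5th percentile of genes within 2-fold of its level. Its log2 fold change was 0.15 ± 0.37 in APAP_MSC against APAP, 0.11 ± 0.37 in APAP_HDF against APAP and 0.04 ± 0.37 in APAP_MSC against APAP_HDF. Without APAP_HDF library 1, the low library, the last 2 became 0.46 ± 0.19 and -0.30 ± 0.19, with edgeR adjusted p of 0.342 and 0.392. That library had the lowest hepatocyte marker sum (84690 CPM) and the highest neutrophil marker sum (10.6 CPM) of its group. Its macrophage (130.1 CPM) and endothelial (259.2 CPM) sums were also the highest of the group, and its Kupffer cell sum (161.9 CPM) was the lowest. In APAP and APAP_MSC, library 1 had the lowest Nr1i3 value (24.1 and 23.4 CPM) and the highest hepatocyte marker sum (112900 and 100800 CPM) of its group. Neutrophil marker sums of these libraries were 10.9 and 4.21 CPM. Their macrophage sums were 130.6 and 86.5 CPM, their endothelial sums 259.5 and 159.5 CPM and their Kupffer cell sums 150.1 and 365.8 CPM. The part of these markers in the Nr1i3 values was not tested.

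**Figure D2:**
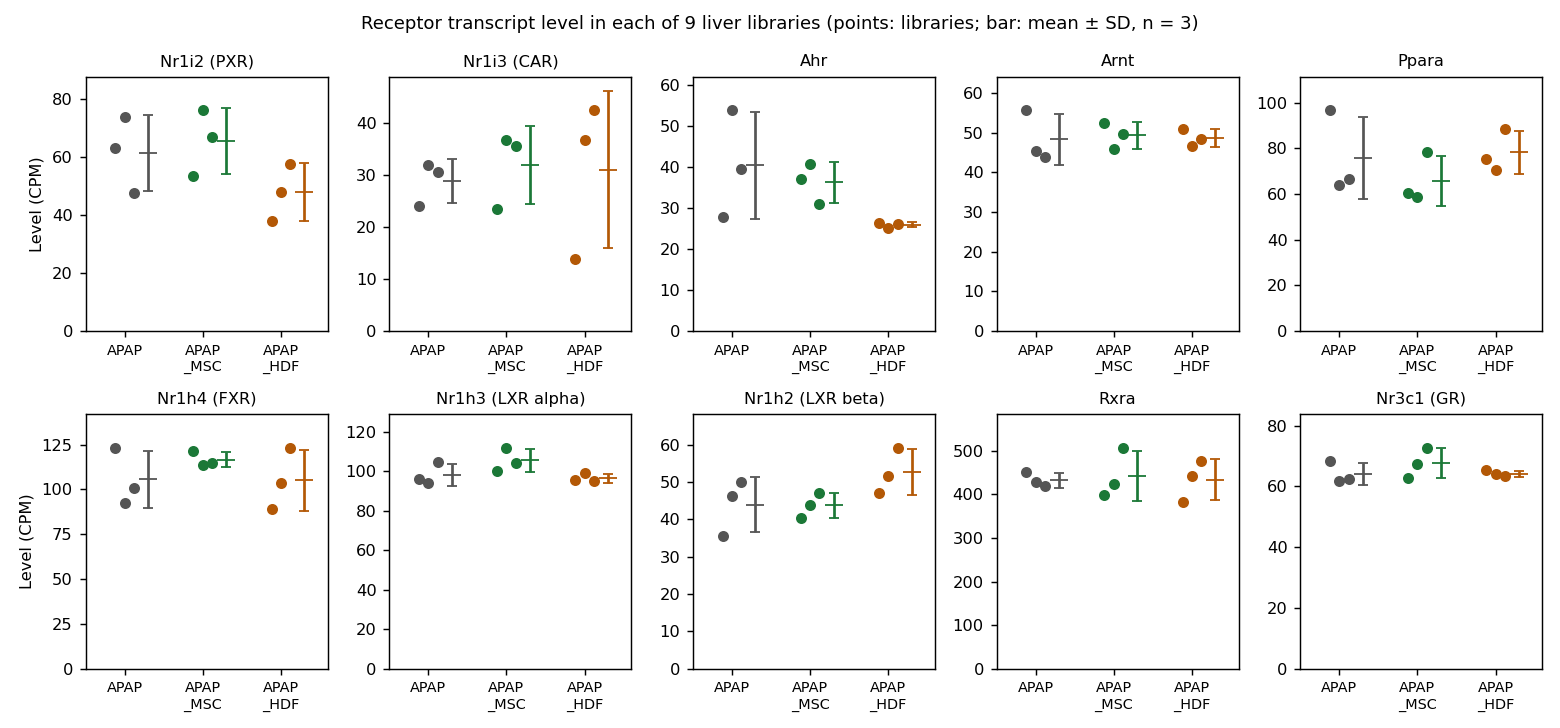
Transcript level in CPM (vertical axis, from 0) of the 10 receptor genes in the 3 libraries of each group, with the group mean and SD beside the points. Ahr in APAP_HDF sits between 25.2 and 26.3 CPM, below all 6 other libraries, while 1 APAP_HDF library holds the lowest Nr1i3 value, 13.9 CPM.

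The genes that PXR and CAR are known to induce were described as a list of 16, all tested, while their receptors were not called. In APAP_MSC against APAP 3 of 16 rose and 0 fell, beside 2.68% and 3.51% of all genes, with a list median log2 fold change of 0.55 against -0.01 over all genes. DESeq2 called 8 higher and 1 lower, beside 904 higher among 2050 called of 17582 genes. It called more genes than edgeR in every comparison, so its list counts are read beside its own totals. By limma-voom 5 were called higher, beside 440 higher among 884 called over all genes. The 3 called by edgeR were Cyp3a11, a main drug-oxidizing cytochrome P450, Ces2a, a carboxylesterase, and Cyp2c55, another P450. Cyp3a11 was at 446, 813 and 502 CPM in APAP, 1804, 1722 and 2000 CPM in APAP_MSC and 323, 528 and 359 CPM in APAP_HDF. Every APAP_MSC value of Cyp3a11 exceeded all other values (log2 fold change 1.65 ± 0.24 against APAP, edgeR adjusted p = 0.00734, and 2.19 ± 0.25 against APAP_HDF, adjusted p = 0.00141). Against APAP_HDF, 8 of 16 rose and 1 fell, beside 4.78% of all genes that rose, with a list median of 1.01 against -0.02. The risers included Ces2a (1.34 ± 0.15), Cyp2c37 (2.10 ± 0.36) and Cyp2c55 (4.66 ± 0.74), and Gadd45b, a stress-response gene, was the 1 that fell (-1.43 ± 0.28). Between APAP_HDF and APAP, edgeR called 0 of 16 and DESeq2 1, beside 0 and 83 of 17582 genes. By edgeR 8 of 16 were under 0.05 unadjusted there, beside 8.29% of all genes, with a list median of -0.41 against -0.004.

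Cyp2c29, a further P450 of that list, was at 29.6, 159 and 170.0 CPM in APAP, 793, 1386 and 1033 CPM in APAP_MSC and 16.3, 117 and 140 CPM in APAP_HDF. It differed in APAP_MSC from APAP_HDF (3.56 ± 0.86, edgeR adjusted p = 0.0390) and narrowly missed the threshold against APAP (3.16 ± 0.85, adjusted p = 0.0641). Reads of Cyp2c and Cyp3a genes can be split among near-identical copies, so the values of single copies are uncertain. Calls of the list against APAP numbered 1 without APAP_MSC library 2, and 2 without APAP library 1 or 3, APAP_MSC library 1 or 3 or APAP_HDF library 3. They numbered 5 without APAP_HDF library 1. Against APAP_HDF, 4 remained called without APAP_MSC library 2 and 6 or more without any other library. Cyp3a11 was called in both comparisons whichever library was left out. Ces2a against APAP was not called without APAP_MSC library 2 (edgeR adjusted p = 0.0641), nor Cyp2c55 without 6 of the 9 libraries taken singly (adjusted p up to 0.144).

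Receptors of the NR1 family and RXR commonly bind repeats of the hexamer AGGTCA. Promoter windows from 250 bases before to 50 after the annotated start were taken from RefSeq on GRCm38.p6, a build that differs from the mm39 of the count table. AGGTCA or its reverse complement TGACCT was found in 16.3% of 32851 windows of this kind. It was found in the windows of 2 of 8 receptor genes with an entry (Nr1h4 and Rxra) and of 7 of 22 called target genes with an entry (31.8%). The same held for 11 of 46 target genes called in no comparison (23.9%). A gene with several windows was counted when any of them matched, so these shares of genes cannot be set directly beside the share of single windows. The called targets here include those of AhR and GR, which are not of the NR1 family. A match describes the letters and is not a measured binding site. The windows of 3 called targets of PXR, CAR and FXR, and of the FXR gene itself, are printed 5′ to 3′ along the gene's strand with the hexamer in capitals, because they show where it lies beside genes whose levels are given here.
Cyp3a11, chr5:145879805-145880104, minus strand, hexamer 162 bases upstream: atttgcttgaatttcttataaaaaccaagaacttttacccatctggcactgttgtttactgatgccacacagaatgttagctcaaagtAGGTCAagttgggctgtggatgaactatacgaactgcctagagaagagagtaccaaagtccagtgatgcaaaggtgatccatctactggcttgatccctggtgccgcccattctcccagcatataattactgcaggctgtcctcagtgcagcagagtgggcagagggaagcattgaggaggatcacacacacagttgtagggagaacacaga
Cyp2c29, chr19:39286835-39287134, plus strand, hexamer 154 bases upstream: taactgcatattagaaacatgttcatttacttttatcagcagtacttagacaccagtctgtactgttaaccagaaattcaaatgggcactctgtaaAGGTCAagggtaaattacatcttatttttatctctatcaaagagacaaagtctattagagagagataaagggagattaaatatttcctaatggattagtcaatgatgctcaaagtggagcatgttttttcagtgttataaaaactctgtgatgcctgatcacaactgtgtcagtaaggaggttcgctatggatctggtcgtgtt
Abcb11, chr2:69342567-69342866, minus strand, hexamer 56 bases upstream: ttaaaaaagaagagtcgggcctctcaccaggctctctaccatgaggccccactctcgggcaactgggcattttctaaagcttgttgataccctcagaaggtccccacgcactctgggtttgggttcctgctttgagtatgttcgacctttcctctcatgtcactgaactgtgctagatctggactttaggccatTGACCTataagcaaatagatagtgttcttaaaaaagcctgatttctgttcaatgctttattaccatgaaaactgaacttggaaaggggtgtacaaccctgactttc
Nr1h4, chr10:89506609-89506908, minus strand, hexamer 214 bases upstream: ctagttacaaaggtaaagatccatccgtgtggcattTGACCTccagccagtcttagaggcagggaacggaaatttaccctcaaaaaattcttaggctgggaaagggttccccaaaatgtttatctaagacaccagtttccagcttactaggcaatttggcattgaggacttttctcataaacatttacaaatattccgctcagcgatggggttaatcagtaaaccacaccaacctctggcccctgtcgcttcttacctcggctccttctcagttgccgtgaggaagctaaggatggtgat

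Ahr, the ligand-binding subunit of the dioxin receptor complex, came nearest to a difference. It was at 27.7, 53.7 and 39.5 CPM in APAP, 37.1, 40.6 and 30.9 CPM in APAP_MSC and 26.3, 25.2 and 26.2 CPM in APAP_HDF. The 3 APAP_HDF values spanned about 1 CPM and lay below all 6 others, whereas the APAP values differed among themselves by 1.94-fold. In APAP_HDF against APAP the log2 fold change was -0.64 ± 0.20, with an interval of -1.08 to -0.20, an unadjusted p of 0.00858 and an edgeR adjusted p of 0.535. In APAP_MSC against APAP_HDF it was 0.48 ± 0.20, with an interval of 0.045 to 0.92 and an edgeR adjusted p of 0.157. In APAP_MSC against APAP it was -0.16 ± 0.20 and the groups overlapped.

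Groups that did not overlap were found for 0 of 10 receptors in APAP_MSC against APAP, beside 28.5% of all genes, for 1 (Ahr) in APAP_HDF against APAP, beside 11.7%, and for 2 (Ahr and Nr1h3) in APAP_MSC against APAP_HDF, beside 33.2%. The Ahr difference between APAP_MSC and APAP_HDF was called when only those 2 groups were fitted (0.50 ± 0.11, edgeR adjusted p = 0.0254) and when APAP library 1 was left out (0.50 ± 0.13, adjusted p = 0.0436). APAP library 1 was not part of that contrast and enters it only through the shared fit. Over all other settings its adjusted p ran up to 0.383. Without APAP library 2, the highest of all, the difference of APAP_HDF from APAP was -0.38 ± 0.16 and that of APAP_MSC from APAP was 0.12 ± 0.16.

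Arnt, the partner of AhR, varied less between libraries than Ahr. It was at 55.6, 45.3 and 44.0 CPM in APAP, 52.5, 45.9 and 49.6 CPM in APAP_MSC and 51.0, 46.7 and 48.4 CPM in APAP_HDF, and all groups overlapped. Its log2 fold changes were 0.03, 0.01 and 0.02 in the 3 comparisons, each with an SE of 0.11. The ratio of Ahr to Arnt, which no scaling of libraries can alter, was 0.499, 1.19 and 0.897 in APAP, 0.708, 0.885 and 0.624 in APAP_MSC and 0.515, 0.540 and 0.541 in APAP_HDF. The APAP_HDF ratios overlapped with APAP through the low APAP library 1 and lay below all 3 APAP_MSC ratios. These ratios, and those of the LXR pair, were chosen after the values were seen and have no test.

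The 8 tested target genes of AhR held 0 calls in APAP_MSC against APAP by edgeR, with 4 under 0.05 unadjusted, beside 22.6% of all genes. DESeq2 called 1 there, beside 2050 of 17582 genes. Against APAP_HDF, 1 of 8 rose, beside 4.78% of all genes, and DESeq2 called 2 higher, beside 1337 of 17582 genes. The 1 called by edgeR was Cyp1a2, a P450 of the liver that oxidizes caffeine and acetaminophen. Cyp1a2 was at 17.95, 167 and 46.8 CPM in APAP, 549.9, 519 and 414 CPM in APAP_MSC and 25.7, 45.1 and 47.5 CPM in APAP_HDF. The APAP_MSC values stood above all others (3.65 ± 0.73 against APAP_HDF, edgeR adjusted p = 0.0200, and 2.68 ± 0.69 against APAP, adjusted p = 0.0580). The call against APAP_HDF was lost without APAP_MSC library 1 or 2 or any 1 of the APAP_HDF libraries (adjusted p = 0.0670 to 0.0958). Cyp1a1, the target most tied to AhR activation, was at 2.85, 11.9 and 1.18 CPM in APAP, 5.81, 4.46 and 5.69 CPM in APAP_MSC and 1.26, 2.13 and 1.503 CPM in APAP_HDF, and was not called (1.71 ± 0.71 in APAP_MSC against APAP_HDF, adjusted p = 0.176). Tiparp, which modifies AhR and damps it, did not pass the test in APAP_MSC against APAP_HDF (-0.61 ± 0.21, adjusted p = 0.0987).

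By the root mean square difference of centred log2 CPM over the 9 libraries, the genes nearest in pattern to Ahr among 9861 candidates were Cp (0.19), Snhg17 (0.19) and Inf2 (0.19), where Ahr's own deviation was 0.35. Those nearest to Nr1i2 were Prdx6 (0.14), Zcchc24 (0.14) and Gm10288 (0.14), where its own was 0.31. These are descriptions over 9 libraries that share their groups.

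Ppara encodes PPAR alpha, the fatty acid receptor that drives fat burning in fasting. It was at 96.7, 64.1 and 66.5 CPM in APAP, 60.3, 58.7 and 78.2 CPM in APAP_MSC and 75.4, 70.6 and 88.6 CPM in APAP_HDF. APAP library 1 was the highest of the 9, and the groups overlapped in all 3 comparisons. The log2 fold change was -0.21 ± 0.17 in APAP_MSC against APAP, 0.05 ± 0.17 in APAP_HDF against APAP and -0.25 ± 0.17 in APAP_MSC against APAP_HDF (edgeR adjusted p = 0.533, 0.962 and 0.393). Without APAP library 1 the first became 0.03.

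Of 23 target genes of PPAR alpha, 1 rose and 1 fell in APAP_MSC against APAP, beside 2.68% and 3.51% of all genes, and the list median was 0.24. DESeq2 called 5 higher and 1 lower, and limma-voom 2 higher and 1 lower, beside 2050 and 884 of 17582 genes called in either direction. By edgeR, the 1 that fell was Angptl4, an inhibitor of lipoprotein lipase that is also a glucocorticoid target. It was at 96.8, 53.01 and 108 CPM in APAP, 28.7, 33.2 and 40.6 CPM in APAP_MSC and 72.4, 82.7 and 135 CPM in APAP_HDF (-1.33 ± 0.31 against APAP, edgeR adjusted p = 0.0403). The APAP_MSC values lay below all others. Against APAP_HDF, 0 of 23 rose and 3 fell, beside 704 of 17582 genes that fell, with a list median of -0.27. There DESeq2 called 2 higher and 5 lower, beside 1337 higher among 2531 called over all genes. The 3 called by edgeR were Angptl4 (-1.50 ± 0.31), Cyp4a10, a fatty acid hydroxylase (-0.96 ± 0.23), and Cpt1a, the carnitine transferase that admits fatty acids to mitochondria (-0.82 ± 0.21). In APAP_HDF against APAP edgeR called 0 of 23 and DESeq2 2, beside 0 and 83 of 17582 genes. By edgeR 6 of 23 were under 0.05 unadjusted in that comparison, beside 8.29% of all genes, with a list median of 0.31. The hepatokine gene Fgf21 was at 1.14, 0.821 and 1.98 CPM in APAP and 5.59, 4.57 and 19.0 CPM in APAP_HDF there, without passing (2.87 ± 0.63, edgeR adjusted p = 0.457).

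The calls of this list depended on single libraries. Angptl4 against APAP was not called without any of 6 libraries taken singly (edgeR adjusted p up to 0.146). Calls against APAP_HDF numbered 0 without APAP_MSC library 2 and 1 without APAP_MSC library 1, APAP_HDF library 1 or APAP_HDF library 2. They numbered 5 without APAP library 3.

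Nr1h4 encodes FXR, the bile acid receptor that limits bile acid synthesis and promotes export. It was at 123, 92.4 and 101 CPM in APAP, 121, 114 and 115 CPM in APAP_MSC and 88.8, 104 and 123 CPM in APAP_HDF. The APAP_MSC libraries lay close together (117 ± 4.26 CPM, SD, n = 3) inside the range of both other groups. The log2 fold change was 0.14 ± 0.14 against APAP and 0.15 ± 0.14 against APAP_HDF, and -0.01 ± 0.14 between APAP_HDF and APAP. None was called, with edgeR adjusted p of 0.601, 0.542 and 0.995.

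The called genes among those that FXR induces and those that it represses were all higher in APAP_MSC. Of 8 tested induced genes, 1 rose against APAP and 2 against APAP_HDF, beside 2.68% and 4.78% of all genes, with list medians of 0.34 and 0.57, and 0 fell. DESeq2 called 1 and 4, all higher, beside 904 and 1337 of 17582 genes. Abcb11, the bile salt export pump, was at 189, 304 and 174 CPM in APAP, 356, 455 and 434 CPM in APAP_MSC and 104, 172 and 149 CPM in APAP_HDF. Its log2 fold change was 0.90 ± 0.23 against APAP (edgeR adjusted p = 0.0495) and 1.55 ± 0.24 against APAP_HDF (adjusted p = 0.00538). Baat, which conjugates bile acids, rose against APAP_HDF (0.64 ± 0.14, adjusted p = 0.0167). Nr0b2 (SHP), the repressor that FXR induces, was at 10.4, 31.5 and 19.5 CPM in APAP, 18.3, 33.7 and 33.3 CPM in APAP_MSC and 16.2, 23.0 and 21.1 CPM in APAP_HDF, and these ranges overlapped.

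Of 3 genes that FXR represses, 2 rose against APAP and 2 against APAP_HDF, beside 2.68% and 4.78% of all genes, and 0 fell. Cyp7a1, which starts the classical route of bile acid synthesis, was at 2.58, 3.88 and 1.36 CPM in APAP, 22.5, 21.9 and 19.8 CPM in APAP_MSC and 0.519, 1.45 and 0.942 CPM in APAP_HDF. It rose in APAP_MSC against both (3.04 ± 0.39, edgeR adjusted p = 0.00555, and 4.46 ± 0.42, adjusted p = 0.00108). Cyp8b1, which sets the share of cholic acid, rose against APAP (2.05 ± 0.47, adjusted p = 0.0420), and Slc10a1, the bile acid uptake carrier, rose against APAP_HDF (1.23 ± 0.25, adjusted p = 0.0168). Between APAP_HDF and APAP, edgeR called 0 of the 8 and 0 of the 3, with 5 and 1 under 0.05 unadjusted, beside 8.29% of all genes. DESeq2 called 0 and 1 there, beside 83 of 17582 genes. Calls of Cyp7a1 in both comparisons and of Abcb11 against APAP_HDF held whichever library was left out. Among the fits without 1 library, the call of Cyp8b1 held only without APAP_MSC library 3 (adjusted p up to 0.120 without each other library). That of Abcb11 against APAP was lost without 7 of the 9 libraries taken singly (adjusted p up to 0.174). Cyp8b1 was also not called with total counts alone, with no filter or with only the 2 groups compared (adjusted p up to 0.127). With no filter, the calls of Abcb11 against APAP and of Slc10a1 against APAP_HDF were lost too (adjusted p = 0.124 and 0.0547). Slc10a1 was not called without APAP_MSC library 2 (adjusted p = 0.0742), nor Baat without APAP_MSC library 2 or 3 (adjusted p up to 0.0862).

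**Figure D3:**
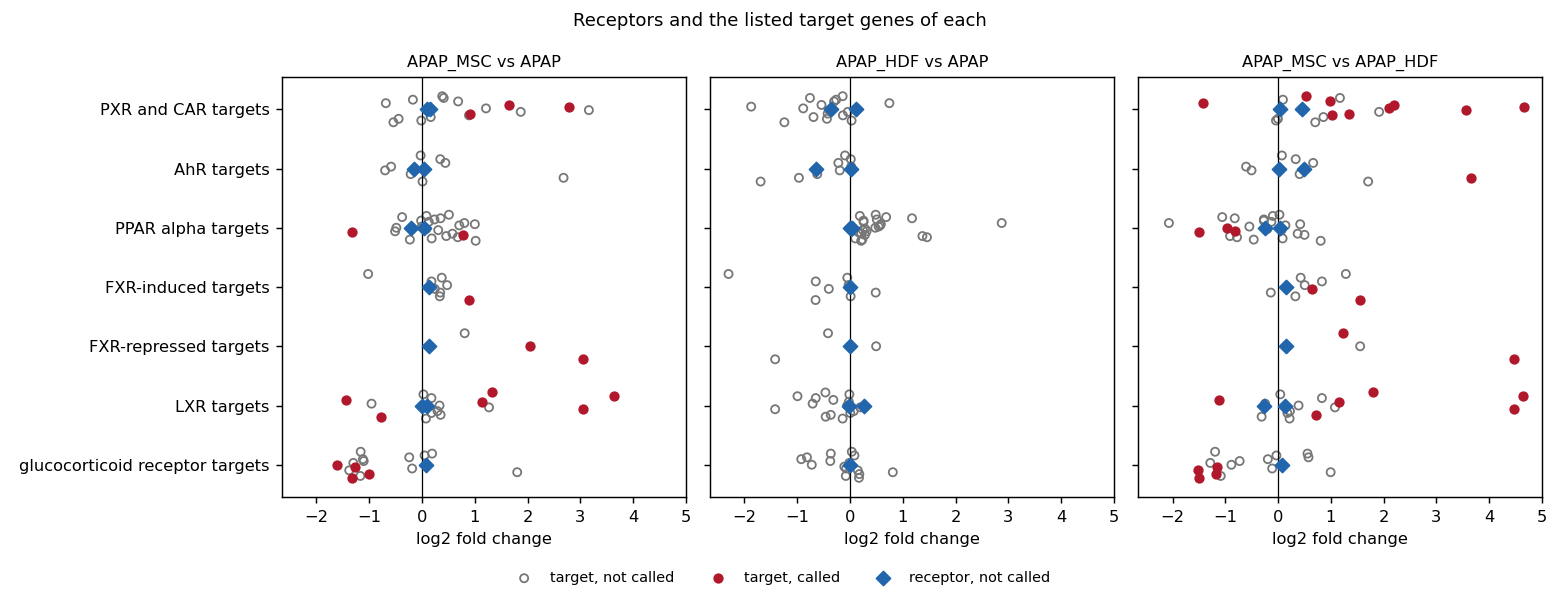
Log2 fold change (horizontal axis) of the receptors (diamonds) and of the genes listed as targets of each (circles, filled where the edgeR adjusted p is under 0.05) in the 3 comparisons. The diamonds lie between -0.64 and 0.48, whereas called targets reach 3.64 in APAP_MSC against APAP and 4.66 in APAP_MSC against APAP_HDF, with no filled circle in APAP_HDF against APAP.

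Nr1h3 and Nr1h2 encode LXR alpha, abundant in liver and macrophages, and LXR beta, expressed in most tissues. Nr1h3 was at 95.8, 94.0 and 105 CPM in APAP, 100, 112 and 104 CPM in APAP_MSC and 95.6, 99.0 and 94.9 CPM in APAP_HDF. All 3 APAP_MSC values of Nr1h3 exceeded the APAP_HDF values, the lowest by about 1 CPM, and the log2 fold change was 0.13 ± 0.09 (edgeR adjusted p = 0.407). Against APAP it was 0.10 ± 0.09, with an interval of -0.09 to 0.30. Nr1h2 was at 35.6, 46.2 and 49.98 CPM in APAP, 40.3, 43.9 and 47.1 CPM in APAP_MSC and 47.1, 51.7 and 59.3 CPM in APAP_HDF. Its APAP_HDF mean was the highest, with a log2 fold change of 0.26 ± 0.13 in APAP_HDF against APAP (adjusted p = 0.629) and -0.27 ± 0.13 in APAP_MSC against APAP_HDF (adjusted p = 0.240).

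The ratio of Nr1h3 to Nr1h2 CPM was 2.69, 2.04 and 2.09 in APAP, 2.48, 2.55 and 2.22 in APAP_MSC and 2.03, 1.92 and 1.60 in APAP_HDF. All 3 APAP_HDF ratios lay below the APAP_MSC ratios and, by a small margin, below the APAP ratios. Set per exon length, the mean ratio of the APAP libraries was 3.03 ± 0.48 (SD, n = 3), that of the APAP_MSC libraries 3.22 ± 0.24 and that of the APAP_HDF libraries 2.47 ± 0.30.

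Of 15 LXR target genes, 4 rose and 2 fell in APAP_MSC against APAP, beside 2.68% and 3.51% of all genes, with a list median of 0.29. Scd1, the stearoyl-CoA desaturase, was at 341, 329 and 329 CPM in APAP, 5468, 4484 and 2526 CPM in APAP_MSC and 228, 126 and 148 CPM in APAP_HDF (3.64 ± 0.31 against APAP, edgeR adjusted p = 8.38e-04). Mlxipl (ChREBP), a sugar-responsive factor of fat synthesis, was at 210.1, 177 and 193 CPM in APAP, 340.4, 473 and 456 CPM in APAP_MSC and 163, 201 and 207 CPM in APAP_HDF (1.13 ± 0.15 against APAP, adjusted p = 0.00441). Srebf1, the master factor of fatty acid synthesis, rose as well (1.33 ± 0.27, adjusted p = 0.0233), and Cyp7a1, described with FXR, is the fourth. The 2 that fell were Mylip, which marks the LDL receptor for breakdown, and Abcg1, a cholesterol exporter.

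Mylip was at 9.36, 7.37 and 5.64 CPM in APAP, 2.29, 2.68 and 3.24 CPM in APAP_MSC and 6.06, 5.66 and 6.25 CPM in APAP_HDF (-1.44 ± 0.21 against APAP, edgeR adjusted p = 0.00606). Abcg1 was at 8.24, 9.61 and 8.72 CPM in APAP, 5.87, 4.59 and 5.08 CPM in APAP_MSC and 6.67, 7.33 and 5.29 CPM in APAP_HDF (-0.77 ± 0.17 in APAP_MSC against APAP, adjusted p = 0.0238). Abcg1 and Mylip fell where macrophage marker sums were also lower (62.2 to 86.5 CPM in APAP_MSC, 128 to 184 CPM in APAP). In APAP_HDF, where all Abcg1 values lay below those of APAP, the macrophage sums (96.7 to 130.1 CPM) overlapped with APAP. The macrophage list median there was -0.57. By edgeR 0 of its 9 markers were called and 3 were under 0.05 unadjusted, beside 8.29% of all genes. Kupffer cell sums overlapped between APAP_MSC (240 to 366 CPM) and APAP (150 to 364 CPM), while the Kupffer list median was -0.61. By edgeR 0 of 6 were called. Under 0.05 unadjusted were 2 of them, Vsig4 (-0.81) and C6 (1.16), beside 22.6% of all genes. The part of these cells was not tested. Abca1, another LXR-driven exporter, differed little (0.08 ± 0.16). Against APAP_HDF, 5 rose, beside 4.78% of all genes, and 1 (Mylip) fell. Of the 15 in APAP_HDF against APAP, edgeR called 0 and DESeq2 2, beside 0 and 83 of 17582 genes. By edgeR 5 of the 15 were under 0.05 unadjusted there, beside 8.29% of all genes. Scd1, Mlxipl, Cyp7a1 and Mylip held their calls against APAP whichever library was left out, and the number called ran from 4, without any 1 of the APAP_MSC libraries or APAP library 1, to 8 without APAP_HDF library 1.

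Rxra encodes RXR alpha, the shared partner of the NR1 receptors. It was at 452, 429 and 418 CPM in APAP, 398, 425 and 508 CPM in APAP_MSC and 383, 442 and 477 CPM in APAP_HDF. The APAP range lay inside the other 2 ranges. Its log2 fold changes were 0.03, 0.003 and 0.03 in the 3 comparisons, each with an SE of 0.13. The 95% intervals ran from -0.28 to 0.31 at the widest.

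Nr3c1, the glucocorticoid receptor gene, was among the steadiest. It was at 68.3, 61.7 and 62.4 CPM in APAP, 62.8, 67.5 and 72.8 CPM in APAP_MSC and 65.4, 63.95 and 63.3 CPM in APAP_HDF, a 1.18-fold range over all 9 libraries. Its log2 fold change was 0.08 ± 0.09 in APAP_MSC against APAP, 0.001 ± 0.09 in APAP_HDF against APAP and 0.08 ± 0.09 in APAP_MSC against APAP_HDF. The SD within groups lay at the 12.5th percentile of genes within 2-fold of its level. That of Nr1h3 lay at percentile 9.1, those of Rxra, Arnt, Nr1h4 and Nr1h2 at percentiles 42.3 to 71.7, and those of Ppara, Nr1i2 and Ahr at percentiles 85.9 to 91.

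Of 15 tested glucocorticoid target genes, 0 rose and 4 fell in APAP_MSC against APAP and again in APAP_MSC against APAP_HDF, beside 617 and 704 of 17582 genes that fell. The list medians were -1.12 and -0.89, against -0.01 and -0.02 over all genes. Fkbp5, a co-chaperone of GR, was at 129, 120.3 and 133 CPM in APAP, 63.3, 52.2 and 74.9 CPM in APAP_MSC and 130.3, 123 and 178 CPM in APAP_HDF. Each APAP_MSC value of Fkbp5 lay below all others (-1.004 ± 0.16 against APAP, edgeR adjusted p = 0.00978, and -1.18 ± 0.16 against APAP_HDF, adjusted p = 0.00264). The metallothionein genes Mt1 and Mt2, which also respond to metals and inflammation, fell against APAP (-1.27 ± 0.30, adjusted p = 0.0415, and -1.61 ± 0.31, adjusted p = 0.0225), as did Angptl4. Igfbp1, a binder of insulin-like growth factors, fell against APAP_HDF (-1.52 ± 0.37, adjusted p = 0.0403). That call was lost without 7 of the 9 libraries taken singly (edgeR adjusted p up to 0.129). Against APAP, the call of Mt1 was lost without 6 of the 9 (adjusted p up to 0.164) and that of Mt2 without 3 (adjusted p up to 0.102). With no filter on low counts, these calls of Igfbp1, Mt1 and Mt2 were lost too.

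Between APAP_HDF and APAP, edgeR and DESeq2 each called 0 of the 15, with 1 under 0.05 unadjusted, beside 8.29% of all genes, and the list median was -0.07. Leaving out APAP_MSC library 2 left 0 calls against APAP, where Fkbp5 had an edgeR adjusted p of 0.0636, and 1 against APAP_HDF. Leaving out APAP_MSC library 1 left 1 call in each. Without APAP_MSC library 3 there were 2 against APAP, and without APAP_HDF library 1 or 3 there were 2 against APAP_HDF. Macrophage and neutrophil marker sums were lower in APAP_MSC than in APAP as given above, and their part in the metallothionein values was not tested.

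Levels were compared between receptors per kilobase of exon, with lengths from GENCODE annotation of GRCm38 for all 10. Averaged over the 9 libraries, Rxra was the most abundant with 79.9 ± 7.05 CPM per kilobase (SD, n = 9), followed by Nr1h4 (47.4), Nr1h3 (39.8), Nr1i2 (22.8), Ppara (19.1), Nr1h2 (14.0), Nr3c1 (8.504), Nr1i3 (6.95), Arnt (6.09) and Ahr (5.54). The ranges over libraries separated Rxra from Nr1h4, Nr1h3 from Nr1i2 and Nr1h2 from Nr3c1. The ranges of the other neighbours overlapped. Within each of the 9 libraries Nr1h4 still lay above Nr1h3 and Ppara above Nr1h2, whereas the remaining neighbours changed order in 2 or 3 libraries. With the longest transcript as the length, a choice made after the values were seen, Nr1h2 moved to the fourth place (23.4) and Nr3c1 to the ninth (10.2), with Rxra first and Ahr last in both orders. In the plot of levels per exon length the groups overlap within each receptor, apart from the low Ahr values of APAP_HDF and the Nr1h3 values of APAP_MSC, which lie above those of APAP_HDF.

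**Figure D4:**
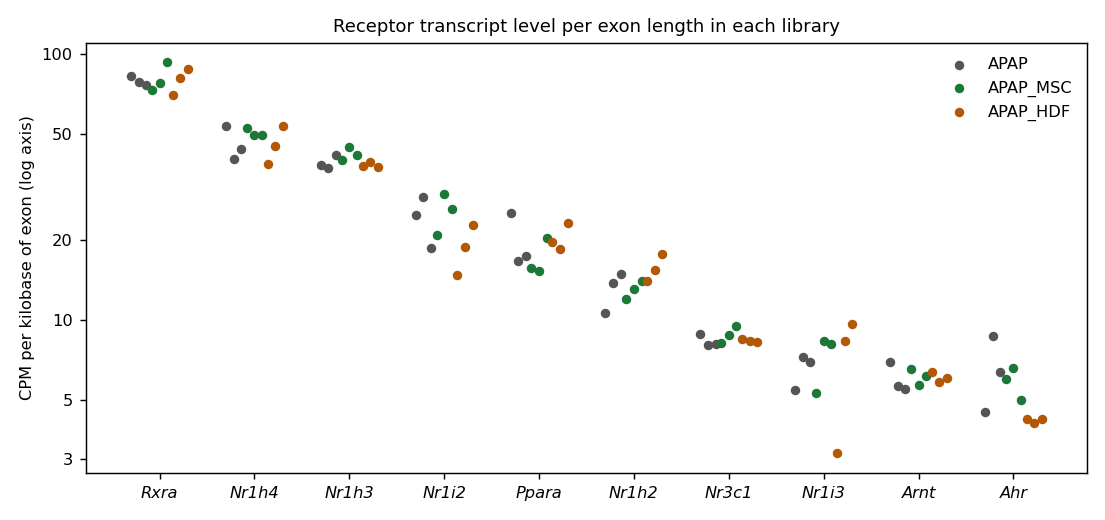
Level per kilobase of exon (log axis) of the 10 receptor genes in each of the 9 libraries, coloured by group and ordered by the mean. Rxra lies between 70.1 and 92.9 CPM per kilobase, above every other receptor, and Ahr between 4.09 and 8.72.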

How the data were processed

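The authors deposited raw counts, whole numbers of reads per gene symbol in 9 libraries, per the file headers and values. The tools named in the submitters' processing notes are HISAT2, Subread and DESeq2, and the builds are mm39 and GRCm39. Versions and strand use are not given in the sources used here, so reads of overlapping antisense genes cannot be told apart. A deposited table of normalized counts was not used. Per the labels' protocols, the material was a piece of whole liver, and a Tecan mRNA kit made the libraries.

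Counts were filtered with filterByExpr (17582 of 28956 genes, 99.966% of counts), scaled by TMM (factors 0.934 to 1.11) and fitted with edgeR 4.0.16 in R 4.3.3 by robust quasi-likelihood with the group as the only term, all 9 libraries sharing 1 spread (biological coefficient of variation 0.197). Tests were two-sided, with Benjamini-Hochberg adjustment over all tested genes and a threshold of 0.05. SEs and 95% intervals come from the fit. The steps were tested on simulated data. Alternatives used DESeq2 1.42.0, limma-voom 3.58.1, other scalings and filters, and each library left out. Depth was 53267231 to 63175573 counts per library, and floors are 3 counts per library, for counting error only. There were 24 repeated symbol entries, none of them named.

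The receptors and gene lists were chosen with earlier results of these data known. Named genes are all receptors, up to 4 of smallest p per list and comparison, every called gene of the nuclear receptor and FXR-repressed lists, and the 3 nearest in pattern to each of the 2 receptors with the smallest p (mean of at least 5 CPM). Of the genes that this rule takes, 1 is not reported here. Nr0b2, Abca1 and Srebf1 were named after their values were seen where the rule does not take them.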

Additional observations from a re-analysis of the deposited data

How the results depend on the processing

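Receptor calls stayed at 0 of 10 under the other scalings, filters and tools in each comparison, except that 1 (Ahr) was called in APAP_MSC against APAP_HDF with only the 2 groups compared. With each library left out in turn, receptor calls ran from 0 to 1 in that comparison and in the test of any group, where APAP library 1 gave the 1, and were 0 in the other comparisons. Genes called numbered 2050 in APAP_MSC against APAP, 83 in APAP_HDF against APAP, 2531 in APAP_MSC against APAP_HDF and 2738 for any group with DESeq2, and 10 in APAP_HDF against APAP with no filter. Leaving out 1 library gave 87 to 1676, 0 to 31, 324 to 1730 and 117 to 1528 in the same order. Fitting only the groups compared and leaving out libraries change the samples, and the cause of the other changes was not tested.

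Receptor estimates near 0 changed sign without being called. In APAP_MSC against APAP, total counts alone gave -0.014 for Nr1i2, -0.082 for Arnt, -0.0085 for Nr1h3, -0.073 for Rxra and -0.033 for Nr3c1. Nr1h2 became 0.0023 with DESeq2 size factors and with DESeq2 itself, 0.00525 with limma-voom, 0.010 with no filter and 0.0013 with a minimum of 1 CPM. Against APAP_HDF, total counts gave -0.046 for Nr1i3, -0.105 for Arnt, -0.079 for Rxra and -0.043 for Nr3c1. For APAP_HDF against APAP, limma-voom gave -0.047 for Nr1i3 and -0.0015 for Rxra, no filter -0.0020 for Rxra and -0.0037 for Nr3c1, the 1 CPM minimum -0.0015 and -0.0034, and DESeq2 size factors -1.44e-06 for Nr3c1.

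Leaving out 1 library changed the sign of further estimates. In APAP_MSC against APAP the ranges were -0.35 to 0.12 for Ahr, -0.032 to 0.16 for Arnt, -0.12 to 0.10 for Nr1h2, -0.061 to 0.25 for Nr1i2, -0.34 to 0.026 for Ppara and -0.059 to 0.11 for Rxra. For APAP_HDF against APAP they were -0.063 to 0.13 for Arnt, -0.058 to 0.013 for Nr1h3, -0.14 to 0.12 for Nr1h4, -0.19 to 0.46 for Nr1i3, -0.030 to 0.052 for Nr3c1, -0.066 to 0.26 for Ppara, -0.072 to 0.083 for Rxra, -1.43 to 0.28 for Cyp1a2 and -0.0083 to 0.28 for Fkbp5. Against APAP_HDF they were -0.029 to 0.080 for Arnt, -0.30 to 0.35 for Nr1i3 and -0.060 to 0.12 for Rxra. Of 20 named target and partner calls against APAP, 5 held in all 9 such fits, as did 10 of 20 against APAP_HDF. No paired analysis was possible because the columns carry no replicate numbers. Each receptor had at least 886 counts in every library, and 3 libraries a group limit the precision. The 95% interval of Nr1i3 in APAP_MSC against APAP ran from -0.69 to 0.98, and differences between these bounds were not excluded.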

Other observations

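Of 32 other nuclear receptors tested, 2 rose and 0 fell in APAP_MSC against APAP, beside 2.68% and 3.51% of all genes, with a median log2 fold change of 0.17. The 6.25% of the list called lay close to the 6.19% of all genes called in either direction. DESeq2 called 4 higher, beside 904 of 17582 genes. Ppard, the broadly expressed PPAR, was at 13.7, 19.6 and 14.3 CPM in APAP, 30.03, 36.1 and 25.99 CPM in APAP_MSC and 17.6, 26 and 19.1 CPM in APAP_HDF (0.96 ± 0.19 against APAP, edgeR adjusted p = 0.0189). Nr2f6, an orphan receptor, was at 48.1, 56.2 and 54.8 CPM in APAP and 66.4, 66.5 and 75.0 CPM in APAP_MSC (0.39 ± 0.10, adjusted p = 0.0397). Ppard was not called without APAP library 1 or APAP_MSC library 1 or 2 (adjusted p up to 0.0947), nor Nr2f6 without 7 of the 9 libraries taken singly (adjusted p up to 0.111). With total counts alone, Nr2f6 was not called either (edgeR adjusted p = 0.128). In APAP_MSC against APAP_HDF edgeR called 0 of 32 and DESeq2 4, beside 1545 and 2531 of 17582 genes. By edgeR 10 of 32 were under 0.05 unadjusted there, beside 25.5% of all genes. Between APAP_HDF and APAP, both tools called 0 of 32, with 1 under 0.05 unadjusted, beside 8.29% of all genes.

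Among 20 receptor coregulators, 0 rose and 2 fell in APAP_MSC against APAP, beside 2.68% and 3.51% of all genes. They were Lcor, a ligand-dependent corepressor (-0.59 ± 0.14, edgeR adjusted p = 0.0301), and Ncoa4, which also carries ferritin to breakdown (-0.38 ± 0.10, adjusted p = 0.0430). Lcor fell against APAP_HDF too (-0.70 ± 0.14, adjusted p = 0.0120). Ncoa4 was not called without 7 of the 9 libraries taken singly (adjusted p up to 0.206), with no filter or with only the 2 groups compared. Lcor was not called against APAP without APAP library 1 or 2 or APAP_MSC library 1 or 2 (adjusted p up to 0.135), nor against APAP_HDF without APAP_MSC library 1 or 2 (adjusted p up to 0.0692). Among 13 tested bHLH-PAS factors and chaperones of AhR, 1 rose and 1 fell in APAP_MSC against APAP, beside 2.68% and 3.51% of all genes. Npas2, a circadian clock factor, rose (1.60 ± 0.40, adjusted p = 0.0445). Npas2 was not called with limma-voom, with no filter or without any 1 of the APAP or APAP_MSC libraries (adjusted p up to 0.168). Npas1 fell against APAP (edgeR adjusted p = 0.0422) and against APAP_HDF (adjusted p = 0.0324), from levels of 0.299 CPM or less and with 1 APAP_MSC library at 0, so no fold is given. Its call against APAP was lost without 8 of the 9 libraries taken singly (adjusted p up to 0.175) and with only the 2 groups compared, and that against APAP_HDF without 5 of the 9 (adjusted p up to 0.144).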
